A study of Mus musculus with 6 samples.

Results

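The genes described here are 39 interferon-stimulated genes of the mouse, a family of antiviral and immune effectors that cells switch on when type I interferon reaches them. They were selected by a list of gene symbols, by a rule that uses no measured value, though the list was drawn up with earlier results of these data known, and all 39 were found among the 52459 rows of the count table. All 39 also passed the filter on low counts, out of 14857 genes tested. The RNA came from macrophages grown out of C57BL/6 mouse bone marrow with GM-CSF, a growth factor for myeloid cells. From day 7 the cultures were kept overnight with RIP1i or with DMSO, the solvent, and 3 libraries were made per group. RIP1i is, by its name, an inhibitor of RIP1 kinase, the product of Ripk1, which links TNF receptors to inflammatory signalling and to cell death. Compound and dose are unstated in the labels. Nothing says that replicates were separate cultures or animals, so each p-value reflects the spread of these 6 libraries alone and may be technical. All cultures carried the same strain background and received GM-CSF. Neither group was given interferon or a virus, as far as the labels say, so the comparison is of resting levels of these genes with and without RIP1i.

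Type I interferons bind the receptor made of IFNAR1 and IFNAR2, whose kinases JAK1 and TYK2 phosphorylate STAT2. STAT2 and IRF9 are parts of ISGF3, a transcription factor that binds the interferon-stimulated response element in front of its target genes. The products of those targets bind or degrade viral RNA, block viral entry or release, sense further viral RNA and limit the response itself. Macrophages keep many of them at a resting level through a low tonic interferon signal.

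The core of the response element was searched as GAAA, 2 free bases and GAAA, or as TTTC, 2 free bases and TTTC for the other strand. RefSeq promoter windows (build GRCm38.p6, 250 bases before to 50 after a start site) were held for 30 of the 39 genes, and 15 of the 30 (50%) contained the core on either strand, overlapping matches counted together. The share was 4.03% among 10234 tested genes with a window and 3.99% among all 27025 genes with a window. A match is a description of the letters and not evidence of a bound site, and a window without these letters says nothing about the factor. Mx1, Mx2, Oas2, Dhx58, Usp18, Parp9, Parp14, Rtp4 and Ifi204 had no window. The windows below show how differently the core is arranged among some of the 39 genes, with matches in capitals. Ifit1 and Ifit3 each have a pair of separate matches, Isg15 has 3 overlapping matches in a single run, Bst2 has 2 overlapping ones, and Ifitm3 has its 2 just after the start site. Ifit2, a neighbour of Ifit1 and Ifit3, is shown as a window in which these letters do not occur.
Ifit1, chr19:34640639-34640938, plus strand: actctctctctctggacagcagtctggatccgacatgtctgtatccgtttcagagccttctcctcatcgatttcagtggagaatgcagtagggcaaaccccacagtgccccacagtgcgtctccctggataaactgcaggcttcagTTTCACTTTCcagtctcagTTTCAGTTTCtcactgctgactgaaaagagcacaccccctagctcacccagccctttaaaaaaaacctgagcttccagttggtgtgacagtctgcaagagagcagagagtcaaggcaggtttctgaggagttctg
Ifit3, chr19:34583279-34583578, plus strand: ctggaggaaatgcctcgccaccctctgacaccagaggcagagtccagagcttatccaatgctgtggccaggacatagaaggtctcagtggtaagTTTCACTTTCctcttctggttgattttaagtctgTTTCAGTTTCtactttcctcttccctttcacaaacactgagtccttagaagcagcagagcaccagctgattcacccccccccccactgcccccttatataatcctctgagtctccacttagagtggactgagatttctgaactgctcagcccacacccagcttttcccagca
Isg15, chr4:156200769-156201068, minus strand: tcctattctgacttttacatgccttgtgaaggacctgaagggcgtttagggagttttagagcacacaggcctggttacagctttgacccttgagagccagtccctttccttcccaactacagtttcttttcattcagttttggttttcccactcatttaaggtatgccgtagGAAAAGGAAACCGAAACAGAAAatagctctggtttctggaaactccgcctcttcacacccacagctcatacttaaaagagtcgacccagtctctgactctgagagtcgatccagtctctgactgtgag
Bst2, chr8:71537423-71537722, minus strand: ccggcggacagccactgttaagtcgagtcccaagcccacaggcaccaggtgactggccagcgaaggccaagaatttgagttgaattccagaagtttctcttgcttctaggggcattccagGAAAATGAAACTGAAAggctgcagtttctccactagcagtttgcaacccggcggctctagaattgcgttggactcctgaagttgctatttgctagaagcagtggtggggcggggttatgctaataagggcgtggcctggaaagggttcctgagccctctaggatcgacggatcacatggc
Ifitm3, chr7:141010695-141010994, minus strand: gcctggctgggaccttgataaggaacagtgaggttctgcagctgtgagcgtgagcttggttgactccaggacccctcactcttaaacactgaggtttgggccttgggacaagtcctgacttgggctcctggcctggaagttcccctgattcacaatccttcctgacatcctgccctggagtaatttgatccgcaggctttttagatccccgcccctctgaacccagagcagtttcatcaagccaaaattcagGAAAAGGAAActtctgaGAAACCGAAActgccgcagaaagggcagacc
Ifit2, chr19:34550444-34550743, plus strand: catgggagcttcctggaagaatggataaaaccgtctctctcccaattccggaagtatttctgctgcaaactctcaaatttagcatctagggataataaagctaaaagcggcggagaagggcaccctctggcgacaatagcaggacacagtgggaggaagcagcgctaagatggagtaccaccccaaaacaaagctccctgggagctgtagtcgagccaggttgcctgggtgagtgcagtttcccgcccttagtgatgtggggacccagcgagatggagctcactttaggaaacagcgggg
The first match began 104 bases before the start site in Ifit1, 156 bases before it in Ifit3, 78 before it in Isg15 and 130 before it in Bst2, and in Ifitm3 at base 3 of the transcript.

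The libraries held 40729238 to 42378138 counts in RIP1i and 40264902 to 44862310 counts in DMSO. Single members had from 50 counts (Oasl1) to 17722 counts (Ifitm3) in a library. All 11 macrophage markers examined stood above 1 CPM in the mean, CPM being read counts scaled to the library total with TMM factors. Ripk1 stood at 155 ± 7.32 CPM in RIP1i and 156 ± 5.55 CPM in DMSO (SD, n = 3 each).

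Resting levels of the 39 genes spanned a wide range. On the deposited FPKM scale, which divides by gene length and so allows genes to be compared, the mean over 6 libraries ran from 0.810 for Oasl1 to 526 for Ifitm3. The mean level was above 20 FPKM in 11 genes and below 5 FPKM in 12. Ifitm3, which encodes a membrane protein that blocks viral fusion, stood at 528, 361 and 567 FPKM in RIP1i replicates 1 to 3 and at 565, 649 and 485 FPKM in DMSO replicates 1 to 3. Bst2, which encodes the virion tether tetherin, followed with 121, 98.8 and 120 FPKM in RIP1i and 121, 133 and 118 FPKM in DMSO. The next levels were those of Slfn5 (34.4 FPKM), Trim30a (32.3 FPKM) and Oas1a (31.7 FPKM). Genes known for strong induction, such as Isg15 (7.50 FPKM), Ifit1 (6.48 FPKM), Rsad2 (4.91 FPKM) and Mx1 (4.08 FPKM), lay far below these in the resting cultures.

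**Figure D1:**
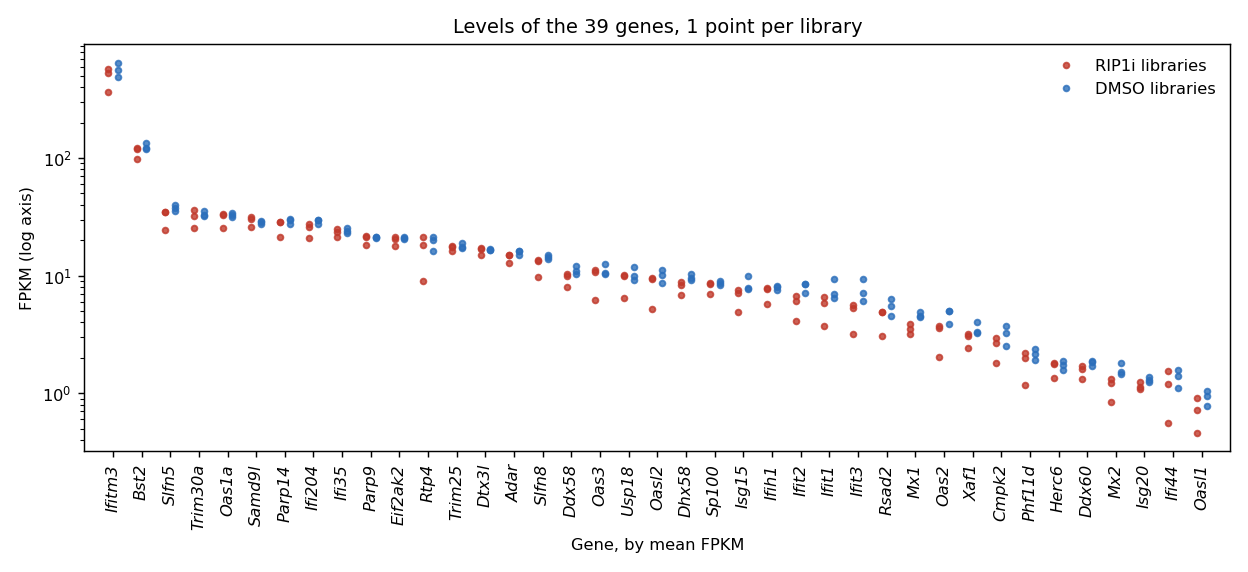
Level of each of the 39 interferon-stimulated genes in FPKM on a log axis, 1 point per library, with RIP1i libraries in red to the left of DMSO libraries in blue, genes ordered by mean FPKM. Levels run from 526 FPKM for Ifitm3 to 0.810 FPKM for Oasl1, and in most genes a single RIP1i point lies below the others.

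In the comparison of RIP1i with DMSO no interferon-stimulated gene passed the test, although 38 of the 39 were fitted lower in RIP1i. In edgeR's quasi-likelihood test, adjusted over all genes, 0 of the 39 genes passed in either direction, against 0% of all 14857 genes lower and 0% higher. The smallest adjusted p among the 39 was 0.777. DESeq2 and limma-voom also called 0 of the 39. Without adjustment, 6 of the 39 had p under 0.05 in edgeR and all 6 were fitted lower, where 2.62% of all genes tested were lower at that level. DESeq2 gave 14 such members, against 1.70% of all genes, and limma-voom gave 7, against 2.67%. The 6 were Ifit2, Ifit3, Mx1, Mx2, Oas2 and Dhx58. Among all genes tested 49.0% were fitted lower. In 11 members all RIP1i libraries were under all DMSO libraries, a pattern that 6.18% of all genes tested showed, and in 0 members they were all above, against 7.36% of all genes. The median log2 fold change (RIP1i minus DMSO) was -0.23 over the 39 genes and 0.0025 over all genes tested. The 95% interval of the fold change lay within 1.5-fold in either direction for 22 of the 39 and within 2-fold for 35. It reached beyond 2-fold in Ifit3, Oas2, Oasl1 and Ifi44.

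A single library held much of the pattern. RIP1i replicate 2 was the lowest of the 6 libraries in 38 of the 39 genes, where it was the lowest in 25.3% of all genes tested. The exception was Mx1. DMSO replicate 2 was the highest in 27 of the 39, against 19.6% of all genes tested. In the same 27 genes RIP1i replicate 2 was also the lowest, a combination found in 9.17% of all genes. The mean level of the 39 genes, each taken as log2 CPM minus its own mean over the 6 libraries, was 0.022, -0.47 and 0.056 in RIP1i replicates 1 to 3. In DMSO replicates 1 to 3 it was 0.13, 0.25 and 0.014. RIP1i replicates 1 and 3 therefore lay beside DMSO replicate 3, and the groups overlapped.

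**Figure D2:**
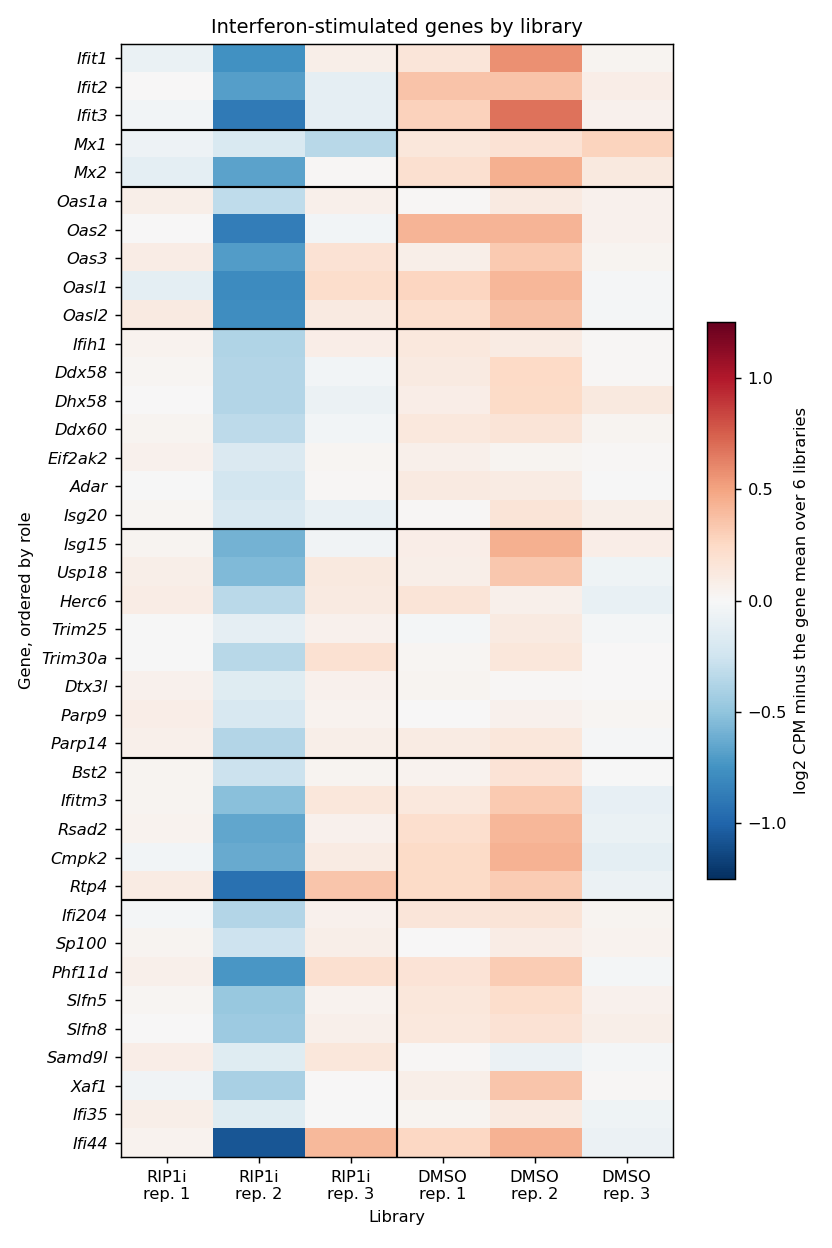
Heatmap of the 39 interferon-stimulated genes (rows, grouped by role, black lines between roles) in the 3 RIP1i and 3 DMSO libraries (columns). Colour is log2 CPM minus the mean of the gene over the 6 libraries, and RIP1i replicate 2 is the lowest library in 38 rows.

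The IFIT proteins, which bind viral RNA by its cap or end and block its translation, had a median log2 fold change of -0.51, and of -0.34 without RIP1i replicate 2. Ifit1 (chromosome 19, 34640871 to 34650009, plus strand, mm10) stood at 15.7, 9.88 and 17.6 CPM in RIP1i and at 18.6, 24.7 and 17.1 CPM in DMSO. The groups overlapped through DMSO replicate 3, and the log2 fold change was -0.48 ± 0.22 (SE, 95% interval -0.995 to 0.030). Ifit2 (34550694 to 34576419, plus strand) stood at 26.2, 16.2 and 24.1 CPM in RIP1i and at 33.5, 33.5 and 27.6 CPM in DMSO. The groups did not overlap, with a log2 fold change of -0.51 ± 0.17 and a 95% interval from -0.90 to -0.11. Ifit3 (34583531 to 34588731, plus strand) stood at 9.92, 5.51 and 9.40 CPM in RIP1i and at 12.4, 16.3 and 10.6 CPM in DMSO. Its groups were also apart, and its log2 fold change of -0.66 ± 0.24 (-1.21 to -0.10) was the largest of the 39. Leaving out RIP1i replicate 2 brought Ifit3 to -0.44, Ifit2 to -0.34 and Ifit1 to -0.28. Ifit3 has a close copy, Ifit3b, and reads of such copies may have been shared between them.

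The Mx GTPases, dynamin-like proteins that trap viral ribonucleoproteins, were both fitted lower, with a median of -0.45, and of -0.37 without RIP1i replicate 2. C57BL/6 mice are known to carry an Mx1 allele with deleted coding exons that gives no functional protein. Mx1 (chromosome 16, 97447035 to 97462907, minus strand) stood at 14.1, 12.9 and 11.6 CPM in RIP1i and at 16.2, 16.7 and 17.9 CPM in DMSO. It was the gene whose lowest library was RIP1i replicate 3, and its groups were apart. The fitted difference was -0.40 ± 0.081 on the log2 scale (-0.59 to -0.21), with an unadjusted p of 0.00143 and an adjusted p of 0.777 in edgeR. Without RIP1i replicate 2 it was -0.41. Mx2 (97535308 to 97560900, plus strand), annotated as a polymorphic pseudogene, stood at 4.39, 3.02 and 4.83 CPM in RIP1i and at 5.51, 6.52 and 5.22 CPM in DMSO, with no overlap. Its log2 fold change was -0.49 ± 0.18 (-0.92 to -0.068), or -0.33 without RIP1i replicate 2.

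The oligoadenylate synthetases make a second messenger that activates the nuclease RNase L, and the related OASL proteins act on RNA sensing and on the translation of Irf7. All 5 were fitted lower, with a median of -0.32, and Oas2 had groups without overlap. Oas2 (chromosome 5, 120730333 to 120749853, minus strand) stood at 16.6, 9.05 and 16.1 CPM in RIP1i and at 22.2, 22.1 and 17.1 CPM in DMSO. Its log2 fold change was -0.56 ± 0.22 (-1.07 to -0.045), or -0.34 without RIP1i replicate 2. Its neighbour Oas3 stood at 75.7, 43.6 and 80.2 CPM in RIP1i and at 74.6, 89.0 and 72.4 CPM in DMSO. Here RIP1i replicates 1 and 3 were within the DMSO range, and the log2 fold change of -0.24 ± 0.21 came to -0.023 without RIP1i replicate 2. Oas1a, the most abundant of the family, stood at 62.8, 48.0 and 62.1 CPM in RIP1i and at 60.1, 64.7 and 61.8 CPM in DMSO. That gave -0.11 ± 0.10, or -0.0034 without RIP1i replicate 2, and Oas1a belongs to a cluster of similar Oas1 genes that may share reads. Oasl1 stood at 1.88, 1.19 and 2.39 CPM in RIP1i and at 2.47, 2.74 and 2.03 CPM in DMSO, with overlapping groups and a log2 fold change of -0.41 ± 0.26. Oasl2 had -0.32 ± 0.22, or -0.087 without RIP1i replicate 2.

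Among the sensors of viral RNA and the enzymes that act on RNA, all 7 genes were fitted lower, with a median of -0.17. Dhx58 (chromosome 11, 100694884 to 100704271, minus strand), which encodes LGP2, a regulator of the other sensors, stood at 28.8, 22.3 and 27.3 CPM in RIP1i and at 30.4, 34.0 and 31.3 CPM in DMSO. The groups did not overlap, and the log2 fold change was -0.29 ± 0.096 (-0.51 to -0.064), or -0.20 without RIP1i replicate 2. Ddx58, which encodes RIG-I, had -0.24 ± 0.10 (-0.49 to 0.0018), with RIP1i replicate 1 at 73.4 CPM just above DMSO replicate 3 at 73.0 CPM. Ifih1, which encodes the sensor MDA5, had -0.16 ± 0.11, or -0.034 without RIP1i replicate 2. Ddx60, a helicase linked to RIG-I signalling, stood at 14.9, 11.5 and 14.2 CPM in RIP1i and at 15.9, 16.3 and 14.9 CPM in DMSO. RIP1i replicate 1 lay under DMSO replicate 3 by less than the rounding shown, and its log2 fold change was -0.21 ± 0.098 (-0.44 to 0.015). Eif2ak2, the kinase PKR that stops translation, had -0.063 ± 0.064. The RNA editing enzyme gene Adar had -0.14 ± 0.070. The exonuclease gene Isg20, at 1.99 to 2.33 CPM in RIP1i and 2.32 to 2.56 CPM in DMSO, had -0.17 ± 0.13.

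The genes of ISG15 conjugation and of related ubiquitin and PARP enzymes were fitted only slightly lower, with a median of -0.083 over 8 genes and 0.0062 without RIP1i replicate 2. Isg15 (chromosome 4, 156199424 to 156200818, minus strand), the ubiquitin-like modifier itself, was the one with groups apart. It stood at 5.68, 3.68 and 5.39 CPM in RIP1i and at 5.89, 7.59 and 5.88 CPM in DMSO, a log2 fold change of -0.39 ± 0.18 (-0.82 to 0.035). RIP1i replicates 1 and 3 lay close under the lowest DMSO library, and without RIP1i replicate 2 the value was -0.23. Usp18, the protease that removes ISG15 and restrains the receptor, stood at 27.6, 17.9 and 28.5 CPM in RIP1i and at 27.6, 33.2 and 25.3 CPM in DMSO, and had -0.22 ± 0.18, or -0.040 without RIP1i replicate 2. Herc6, the main ISG15 ligase of the mouse, had -0.075 ± 0.13, and Trim25, a ligase that activates RIG-I, had -0.045 ± 0.057. Trim30a, which restrains TLR signalling, stood at 132, 104 and 151 CPM in RIP1i and at 134, 145 and 132 CPM in DMSO, with -0.092 ± 0.12. The PARP genes Parp9 and Parp14 and the ligase gene Dtx3l, whose product pairs with PARP9, had small values too. Parp9 had -0.046 ± 0.073, Parp14 had -0.14 ± 0.11 and Dtx3l had -0.027 ± 0.059. The sign of Herc6, Trim30a, Dtx3l and Parp9 turned without RIP1i replicate 2, at values from 0.026 to 0.046.

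Proteins that act on membranes or metabolism gave 5 of 5 fitted lower, with a median of -0.23 and none with groups apart. Ifitm3 stood at 359, 244 and 388 CPM in RIP1i and at 384, 441 and 328 CPM in DMSO. RIP1i replicates 1 and 3 exceeded DMSO replicate 3, and the log2 fold change was -0.22 ± 0.18 (-0.63 to 0.19), or -0.053 without RIP1i replicate 2. Bst2 stood at 109, 89.0 and 109 CPM in RIP1i and at 110, 120 and 107 CPM in DMSO, with -0.13 ± 0.088. Rsad2, which encodes viperin, and Cmpk2, the nucleotide kinase gene beside it on chromosome 12, had nearly the same values. Rsad2 had -0.34 ± 0.20, and Cmpk2 had -0.36 ± 0.20, with 11.2, 7.41 and 12.3 CPM in RIP1i and 13.5, 15.5 and 10.5 CPM in DMSO. The receptor-transporting protein gene Rtp4 had its RIP1i replicate 2 at 19.0 CPM, against 38.7 and 46.1 CPM in RIP1i replicates 1 and 3 and 34.4 to 45.1 CPM in DMSO. Its log2 fold change was -0.23 ± 0.29, and 0.050 without RIP1i replicate 2.

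Of the remaining 9 genes, nuclear proteins, Schlafens and others, 8 were fitted lower and 3 had groups apart. Slfn5, a Schlafen family gene, stood at 219, 155 and 222 CPM in RIP1i and at 238, 250 and 224 CPM in DMSO, with a log2 fold change of -0.26 ± 0.13 (-0.56 to 0.044). Its neighbour Slfn8 stood at 54.4, 39.4 and 56.4 CPM in RIP1i and at 59.5, 61.5 and 56.8 CPM in DMSO, with -0.24 ± 0.12 (-0.53 to 0.048). In both genes RIP1i replicate 3 lay just under DMSO replicate 3, and without RIP1i replicate 2 the values were -0.12 and -0.11. Xaf1, a pro-apoptotic partner of XIAP, stood at 14.5, 11.3 and 14.999 CPM in RIP1i and at 15.7, 18.9 and 15.1 CPM in DMSO, with -0.28 ± 0.13. Ifi204, a DNA-binding PYHIN protein gene, had -0.22 ± 0.10, Phf11d had -0.26 ± 0.22 and the nuclear body gene Sp100 had -0.092 ± 0.085. Ifi35 had -0.056 ± 0.069. Ifi44 had its RIP1i replicate 2 at 3.40 CPM, 59.3% below the mean of the other 5 libraries, and its log2 fold change of -0.30 ± 0.33 was 0.0059 without that library. Samd9l, a translation inhibitor gene, was the member fitted higher. It stood at 166, 141 and 174 CPM in RIP1i and at 159, 149 and 155 CPM in DMSO, a log2 fold change of 0.055 ± 0.076.

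**Figure D3:**
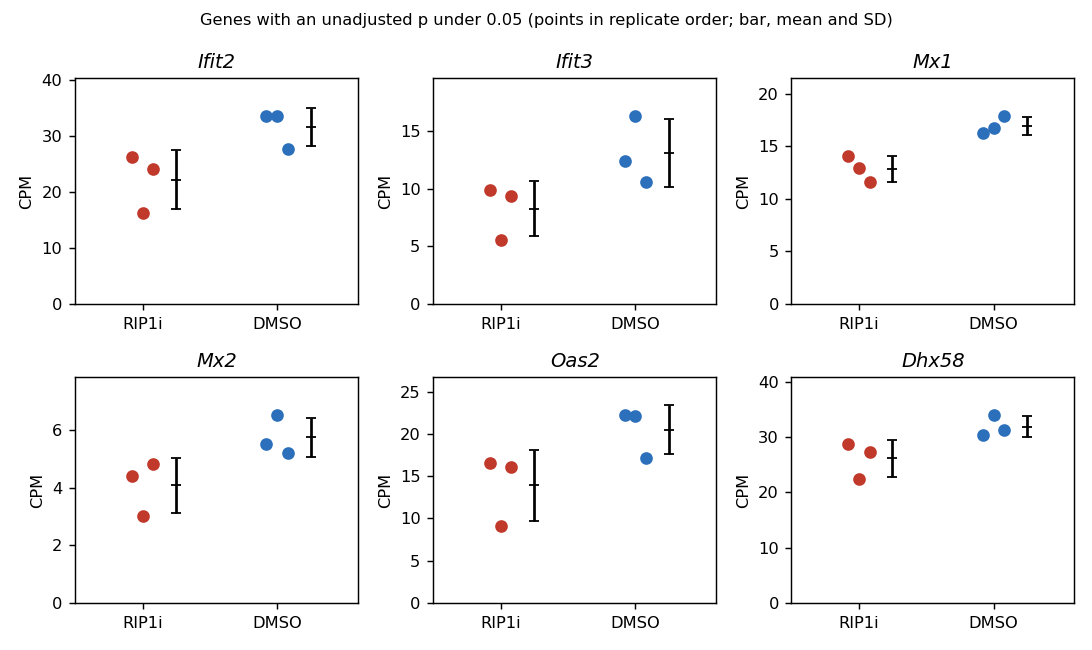
CPM in each library of the 6 interferon-stimulated genes with an unadjusted p under 0.05 in edgeR, RIP1i in red at the left and DMSO in blue at the right of each panel, points in replicate order 1 to 3, bars the mean and SD (n = 3 each). All RIP1i points lie below all DMSO points in each panel, and the middle RIP1i point, replicate 2, is the lowest in 5 of the 6 genes, Mx1 being the other. None of the 6 passed after adjustment (adjusted p = 0.777).

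Without RIP1i replicate 2 the median log2 fold change of the 39 genes was -0.081, with 32 fitted lower, where 52.8% of all genes were fitted lower in that fit. Again 6 members had an unadjusted p under 0.05 and were lower, where 3.08% of all genes were, and they were the same 6 genes as with all libraries. Samd9l, at 0.13 ± 0.045, was higher at that level, where 3.86% of all genes were. No gene passed after adjustment in edgeR, and the smallest adjusted p among the 39 was 0.692. Leaving out RIP1i replicate 2 and DMSO replicate 2 together brought the median to -0.026 with 21 of the 39 fitted lower, where 51.8% of all genes were. Since those libraries were the lowest and highest in most of the 39 genes, their removal had to move the median towards 0. RIP1i replicate 2 lay below the mean of the other 5 libraries by 8.70% (Trim25) to 59.3% (Ifi44), with a median of 27.0% over the 39 genes. In 28 of the 39 it lay at least 20% below, as it did in 13.6% of all genes.

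**Figure D4:**
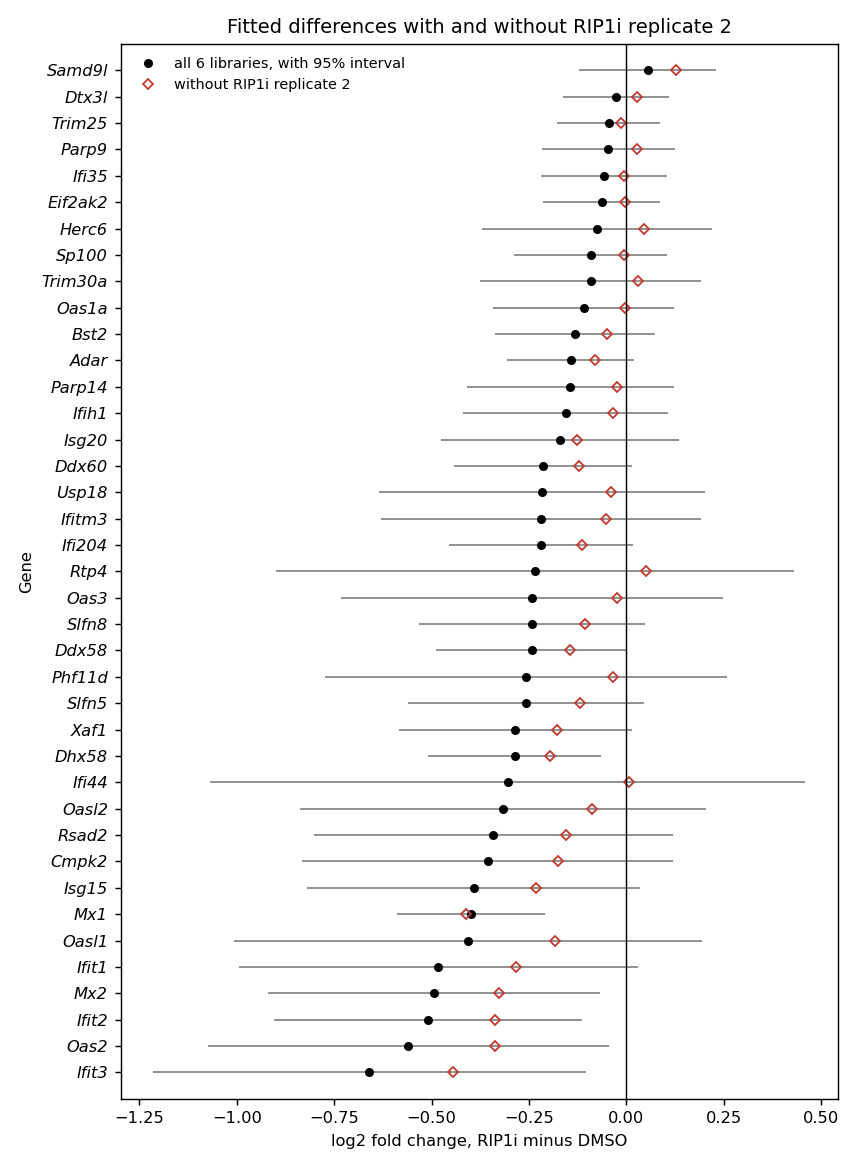
Log2 fold change (RIP1i minus DMSO) of each of the 39 genes with its 95% interval from all 6 libraries (black points and grey lines) and the value without RIP1i replicate 2 (open red diamonds). With all libraries 38 of 39 points lie below 0, and without RIP1i replicate 2 most diamonds move towards 0 while Mx1 stays at -0.41.

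Markers of other cell types also differed between the libraries, and most of those of stromal cells shared the extremes of the interferon-stimulated genes. Of 12 stromal markers, 9 were lowest in RIP1i replicate 2 and highest in DMSO replicate 2, among them the collagen genes Col1a1, Col1a2 and Col3a1 and the receptor genes Pdgfra and Pdgfrb. By contrast, 2 of the 12, Fstl1 among them, were highest in RIP1i replicate 2. Col1a1 stood at 32.1, 10.2 and 21.9 CPM in RIP1i and at 29.1, 49.9 and 10.7 CPM in DMSO. Low values thus occurred both in RIP1i replicate 2 and in DMSO replicate 3. The 10 neutrophil and precursor markers, 8 of them at or above 1 CPM, summed to 487, 682 and 244 CPM in RIP1i replicates 1 to 3 and to 483, 251 and 652 CPM in DMSO replicates 1 to 3. They were highest in RIP1i replicate 2, where the 39 genes were lowest, and 8 of the 10 had their highest value there. They were nearly as high in DMSO replicate 3, where the mean level of the 39 genes was 0.014, its lowest in DMSO. Dendritic cell markers, mostly Itgax, summed to 1382, 1478 and 1331 CPM in RIP1i and to 1239, 1223 and 1386 CPM in DMSO. Of the 8 tested, 5 were highest and 1 was lowest in RIP1i replicate 2. Mast cell, basophil and eosinophil markers summed to 187, 213 and 173 CPM in RIP1i and to 211, 170 and 194 CPM in DMSO, with 2 of 8 highest in RIP1i replicate 2. The stromal markers, 11 of them at or above 1 CPM, summed to 861, 686 and 771 CPM in RIP1i and to 766, 930 and 628 CPM in DMSO, most of it from Fstl1, which was highest in RIP1i replicate 2. Without Fstl1 the sum was 271, 96.0 and 219 CPM in RIP1i and 233, 406 and 106 CPM in DMSO. It was lowest in RIP1i replicate 2 and highest in DMSO replicate 2, as were the 39 genes, and nearly as low in DMSO replicate 3. Lyz2, which encodes lysozyme, was lowest in RIP1i replicate 2 and highest in DMSO replicate 2, as were Csf1r and Fcgr1. These were 3 of 11 macrophage markers, while 2 of the 11 were highest in RIP1i replicate 2. The 10 macrophage markers other than Lyz2 together were at 6037 CPM in RIP1i replicate 2 and 5912 CPM in DMSO replicate 2. The 7 markers of plasmacytoid dendritic cells, known as strong interferon producers, summed to 30.3 to 37.9 CPM in RIP1i and 33.4 to 37.1 CPM in DMSO, nearly all of it from Tcf4. The defining marker Siglech stood at 0.966 to 1.07 CPM in RIP1i and 0.751 to 1.19 CPM in DMSO, and Ly6d had 0 counts in each RIP1i library and at most 2 in a DMSO library. No marker of these lists had 0 counts in all 6 libraries. The part of cell composition in the level of the 39 genes was not tested, and in bulk RNA fewer cells of a type and less RNA per cell cannot be told apart.

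**Figure D5:**
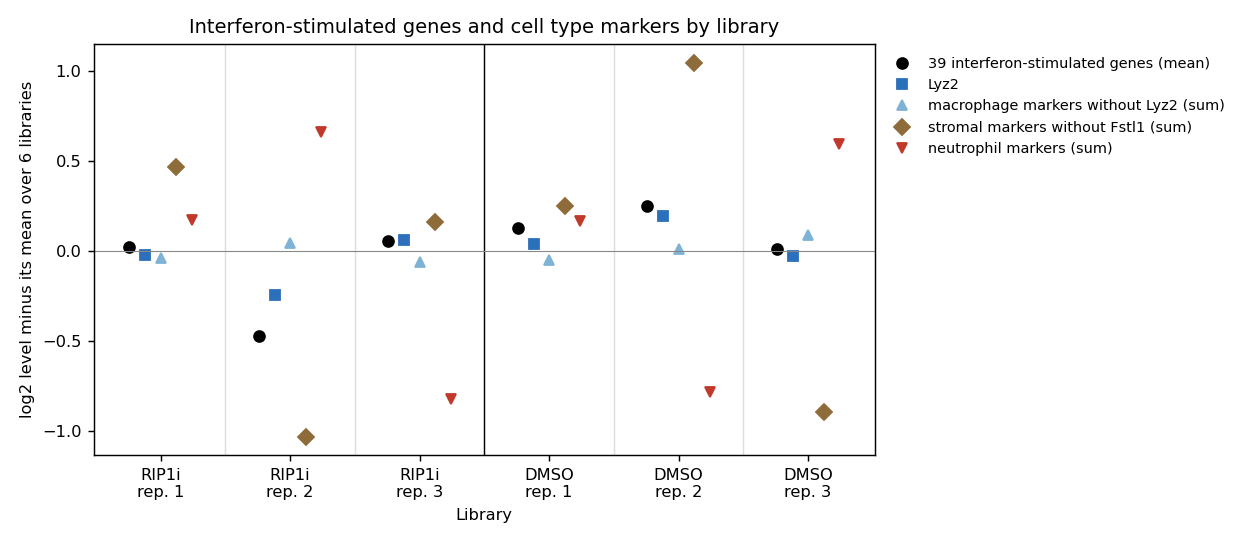
Mean level of the 39 interferon-stimulated genes (black circles), Lyz2 (blue squares), the other macrophage markers (light blue triangles), stromal markers without Fstl1 (brown diamonds) and neutrophil markers (red triangles) in each library, as log2 level minus its mean over the 6 libraries. The 39 genes stand at -0.47 in RIP1i replicate 2, where stromal markers without Fstl1 are lowest and neutrophil markers highest. In DMSO replicate 3 the 39 genes stand at 0.014, their lowest level in DMSO, and both sets of markers are nearly as extreme there.

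The genes upstream of the 39 were measured in the same libraries. Transcripts of the interferons themselves were all but undetected. The 20 type I and type III interferon genes examined had 8 counts in all over the 6 libraries, 2 in RIP1i and 6 in DMSO, and none reached the test. Ifnb1, the gene of interferon beta, had 0, 1 and 0 counts in RIP1i and 2, 3 and 0 counts in DMSO. Counts this low do not allow the groups to be compared. The receptor genes Ifnar1 and Ifnar2 were well expressed. Ifnar1 averaged 120 ± 7.59 CPM in RIP1i and 119 ± 3.48 CPM in DMSO (SD, n = 3 each), a log2 fold change of 0.010 ± 0.053. Ifnar2 averaged 82.2 ± 2.02 CPM in RIP1i and 81.2 ± 2.70 CPM in DMSO (SD, n = 3 each), a log2 fold change of 0.018 ± 0.041. Jak1 had 0.037 ± 0.040 and Tyk2 had -0.051 ± 0.049.

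Stat2 and Irf9, which are interferon-induced as well, were both fitted lower. Stat2 stood at 143, 127 and 143 CPM in RIP1i and at 148, 159 and 147 CPM in DMSO, without overlap, and its log2 fold change was -0.14 ± 0.058 (-0.28 to -0.0039). Irf9 had -0.094 ± 0.057, with overlapping groups. Of the 10 receptor and JAK-STAT genes 5 were fitted lower, against 49.0% of all genes, and 0 passed. Stat2 was the only one with an unadjusted p under 0.05 in edgeR, where 2.62% of all genes were lower at that level. The interferon gamma receptor genes Ifngr1 and Ifngr2 had -0.069 ± 0.056 and 0.015 ± 0.046, and Jak2 had 0.18 ± 0.18.

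Of 20 genes that lead to interferon production, 12 had a negative log2 fold change, where 49.0% of all genes tested did, and 0 passed. Zbp1 and Ikbke were lower at an unadjusted p under 0.05 in edgeR, where 2.62% of all genes tested were. Zbp1, a sensor of Z-form nucleic acid that can engage RIP1 and RIP3, stood at 16.8, 13.9 and 15.6 CPM in RIP1i and at 17.8, 19.4 and 16.8 CPM in DMSO, with -0.22 ± 0.085. Ikbke, which encodes the kinase IKK epsilon, stood at 56.7, 47.7 and 59.9 CPM in RIP1i and at 64.3, 68.6 and 60.1 CPM in DMSO, with -0.23 ± 0.089. Both lacked overlap between the groups, as did Irf8. These were 3 of 20 apart on the lower side, against 6.18% of all genes, and Irf5 was the 1 apart on the higher side, against 7.36%. Irf5 stood at 333, 341 and 330 CPM in RIP1i and at 321, 324 and 329 CPM in DMSO. Irf7, the factor that amplifies interferon production, stood at 20.1, 12.4 and 18.5 CPM in RIP1i and at 19.2, 24.3 and 18.9 CPM in DMSO, with -0.29 ± 0.18. Irf7, Zbp1 and Ikbke were each lowest in RIP1i replicate 2 and highest in DMSO replicate 2, whereas Irf8 was lowest in RIP1i replicate 3. Irf3 had -0.033 ± 0.062, Irf8 had -0.092 ± 0.040, Tlr4 had 0.16 ± 0.091 and Tlr9 had -0.14 ± 0.085. Of 12 tested negative regulators 8 were fitted lower and none had an unadjusted p under 0.05. The smallest p-values there belonged to Irf2 (-0.20 ± 0.096), Samhd1 (-0.14 ± 0.074), Rnaseh2b (0.12 ± 0.074) and Nlrc5 (-0.12 ± 0.083).

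A further list held 57 tested interferon-stimulated genes outside the 39, measured in the same libraries. Of these, 45 were fitted lower and 12 higher, where 49.0% of all genes tested were fitted lower, and 0 passed. The median log2 fold change was -0.075, or -0.045 without RIP1i replicate 2. Groups were apart in 8 on the lower side, against 6.18% of all genes, and in Cd274 on the higher side, against 7.36%. At an unadjusted p under 0.05 there were 4 lower, against 2.62% of all genes, and 1 higher, against 3.59%. Slfn1, a Schlafen gene that limits T cell growth, stood at 16.3, 14.98 and 14.7 CPM in RIP1i and at 19.4, 18.2 and 23.4 CPM in DMSO, with -0.41 ± 0.099. Pml, the scaffold of nuclear bodies, had -0.26 ± 0.082. Sp110 had -0.13 ± 0.049 and Oas1g had -0.29 ± 0.13, while Cd274, the gene of PD-L1, had 0.089 ± 0.034. The next 3 by p were Znfx1 (-0.22 ± 0.095), an RNA-sensing helicase, Parp10 (-0.14 ± 0.064) and Trim30d (-0.21 ± 0.096). Each of these genes had an adjusted p of 0.777 in edgeR. Pml, Oas1g, Znfx1, Parp10 and Trim30d were lowest in RIP1i replicate 2, Slfn1 and Sp110 in RIP1i replicate 3 and Cd274 in DMSO replicate 2.

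The 39 genes lie on 14 chromosomes, and 16 of them have another member within 100 kb. Ifit1, Ifit2 and Ifit3 in their chromosome 19 cluster ran from -0.66 to -0.48, and Rsad2 and Cmpk2 had -0.34 and -0.36. Oas2 and Oas3 had -0.56 ± 0.22 and -0.24 ± 0.21, with overlapping 95% intervals. Differences between neighbours were not tested. Parp9 and Dtx3l, which share a promoter region on opposite strands and overlap in 458 exonic bases, had -0.046 and -0.027. In the GENCODE M21 annotation, 13 of the 39 overlap an exon of another gene, and for 12 of them that gene is also in the count table. Whether counting used strand is not given in the sources used here, so reads in such overlaps cannot be assigned with certainty. Of the genes with an unadjusted p under 0.05 only Dhx58 had such an overlap, in 141 of 3272 exonic bases. Members with a promoter match to the response element core had a median log2 fold change of -0.24 (n = 15), and those with a window but no match had -0.17 (n = 15). Without RIP1i replicate 2 these medians were -0.11 with a match and -0.034 with no match. The 9 members that had no window had a median of -0.23 with all libraries and of -0.11 without RIP1i replicate 2.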

How the data were processed

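RNA-seq counts were analysed for 3 RIP1i and 3 DMSO libraries, grouped by sample title. The authors deposited raw read counts per gene and FPKM values for the same libraries. Per the submitters' processing notes, the tools named were STAR 2.5.3a, CASAVA 1.8.4, DESeq2 1.14.0, Subread 1.4.6-p3 and featureCounts, with build mm10 and no roles given. The annotation is not given in the sources used here. The deposited FPKM values equal counts scaled by gene and library, so they add no measurement. Over 4049 well-covered genes the library factor differed from the inverse size factor by at most 0.000193%.

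Counts were filtered with filterByExpr (minimum count 10, minimum total 15) and tested in R 4.3.3 by edgeR 4.0.16 (quasi-likelihood), with TMM scaling, treatment as the only term, 2-sided, Benjamini-Hochberg over 14857 genes, threshold 0.05. SE came from the F statistic. Overlap between groups was judged on CPM. The script was checked on simulated counts. The alternatives were other scalings and filters, DESeq2 1.42.0, limma-voom (limma 3.58.1), the replicate block, omitted libraries, and limma on log2(FPKM + 1) or log2(FPKM + 0.1). No 2 libraries agreed within sampling noise. Members and lists were chosen with earlier results of these data known. The rule for named genes took members with unadjusted p under 0.05, no overlap, the 5 highest mean FPKM or large differences, 12 pathway genes whatever their result, and list genes by smallest p. Symbols turned into dates (26) stayed in the test. The values of 1 pathway gene are not reported here.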

Additional observations from a re-analysis of the deposited data

How the results depend on the processing

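None of the 39 genes passed the adjusted threshold in edgeR or in any of the 17 alternatives. Over all genes, DESeq2 called 2 and limma on log2(FPKM + 1) without a filter called 4. The number of the 39 lower at an unadjusted p under 0.05 was 6 in the reported fit, against 2.62% of all genes. It was 12 with upper-quartile scaling (3.37% of all genes) and 17 without a filter on low counts (2.23%). With DESeq2 it was 14 (1.70%) and with the replicate block 3 (1.23%). It ran from 2 to 15 when each library was left out in turn. The lowest, 2, came without DMSO replicate 2 (2.35% of all genes) and the highest, 15, without RIP1i replicate 3 (3.16%). The causes were not tested. The number with groups apart was 11, against 6.18% of all genes, and it ran from 14 to 23 with a library left out, where 10.7% to 13.3% of all genes had groups apart on the lower side. The number fitted lower stayed at 38 under the other scalings, filters and tools, where 47.2% to 53.7% of all genes were fitted lower. It ran from 32 to 39 with a library left out, against 49.0% to 53.9% of all genes. Without RIP1i replicate 2 and DMSO replicate 2 together it was 21, against 51.8% of all genes, and the median was -0.026. The deviations of same-numbered libraries from their group means correlated at -0.038, -0.62 and -0.59. Deviations within a group of 3 libraries constrain each other, so these values cannot settle whether replicate numbers pair the libraries. Between RIP1i and DMSO libraries of different numbers the correlations ran from -0.38 to 0.71. The lowest was RIP1i replicate 1 with DMSO replicate 3, and the highest RIP1i replicate 2 with DMSO replicate 3.

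Some directions turned. The log2 fold change of Ifnar1 was -0.0012 with upper-quartile scaling. Without RIP1i replicate 2 and DMSO replicate 2 together, the log2 fold changes that turned were Oas1a 0.023, Oas3 0.072, Oasl2 0.0034, Usp18 0.074, Herc6 0.050, Trim25 0.028, Trim30a 0.071, Dtx3l 0.022, Parp9 0.036, Parp14 0.0070, Bst2 0.0015, Ifitm3 0.055, Rtp4 0.13, Sp100 0.016, Phf11d 0.046, Ifi35 0.032, Ifi44 0.12, Ifnar1 -0.080, Ifnar2 -0.019, Irf7 0.0045, Ripk1 0.048 and Jak2 -0.16. With each library left out in turn, the genes that turned had these lowest and highest log2 fold changes: Ifngr2 -0.020 to 0.045, Herc6 -0.16 to 0.046, Trim30a -0.22 to 0.030, Dtx3l -0.069 to 0.026, Parp9 -0.11 to 0.027, Rtp4 -0.50 to 0.050, Ifi44 -0.64 to 0.0059, Ifnar1 -0.054 to 0.037, Ifnar2 -0.016 to 0.039, Ripk1 -0.040 to 0.024, Jak2 -0.035 to 0.33, Samd9l -0.0098 to 0.13 and Jak1 -0.0011 to 0.047. Among the 39 genes, 639 of 663 values kept their direction over the 17 alternatives, and the 24 that turned were in 18 genes. The interferon genes had 8 counts in all, and Oasl1 and Isg20 had the lowest counts of the 39.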
